A study of Mus musculus with 18 samples.

Results

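The subject was a set of 1642 regions of mouse chromatin that ATAC-seq called in the control eye but not in the pressured eye of old animals. They were selected on the peak lists themselves: the lists of 18 libraries were merged wherever peaks overlapped by 1 bp or more, regions found in 2 or more lists were kept (73567 consensus regions), and a region was a member when all 3 contralateral lists at 18 months and 0 of 3 IOP lists at 18 months held it. Members made up 2.23% of all consensus regions, and 26.4% of the 6225 regions called in 3 of these 6 libraries; these shares come from the rule and were not tested. Below, "lost" means only that a region was no longer called, which is not a measured absence of open chromatin.

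ATAC-seq was run on whole retina of wild-type mice in 18 libraries, 3 in each of 6 groups. At 3 months and at 18 months of age, one eye was held at an intraocular pressure (IOP) of 30 mmHg for 1 h, the opposite eye served as the contralateral control, and both were collected on day 2 according to the labels (the study's text gives another day). Further animals of each age were untreated. The contralateral control is therefore the fellow eye of a pressured animal and not an untouched retina, and the labels do not say which replicates came from the same animal. The treatment text shared by all samples also describes dasatinib or vehicle after pressure, with no sample assigned to either, and the preparation text mixes in chromatin immunoprecipitation steps, whereas fresh nuclei were transposed according to the study's methods. Peak lists held 36011 to 66160 peaks covering 13.5 to 26.2 Mb and no read counts, so the depth behind a missing call is unknown. The tissue label was checked on promoters: 17 of 20 rod genes, Nrl and Nr2e3 among them, had a promoter region called in all 18 libraries. So had 6 of 14 cone, 7 of 17 Müller glia, 5 of 18 bipolar, 3 of 18 amacrine and 4 of 19 ganglion cell genes. Outside the neural retina these were 0 of 10 lens and ciliary epithelium genes and 3 of 11 pigment epithelium genes, and 1 of 16 microglia genes. The check thus rests on the rods and does not set pigment epithelium apart from the inner retinal neurons.

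ATAC-seq uses a transposase that inserts adapters where DNA is not packed against nucleosomes, so its peaks mark promoters, enhancers and the sites of architectural proteins. Rods are the most numerous cells of the mouse retina, and the homeodomain factors Crx and Otx2 occupy many photoreceptor enhancers. CTCF, a zinc-finger protein that anchors chromatin loops together with cohesin, occupies sites that are largely shared between cell types. Since the tissue was bulk retina, fewer cells of a type and less open chromatin per cell cannot be told apart.

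The sequences below show what the regions look like, each as the 200 bp around the median summit on the plus strand of GRCm38. Capitals mark a match to the Crx and Otx2 motif (TAATCC, or GGATTA on the other strand) or to a 12-letter CTCF pattern on either strand. The first pair are members that 0 of 3 IOP libraries at 18 months called although every one of the other 15 libraries did: the promoter of P2ry6, a receptor for extracellular UDP, and a region next to Keap1, the adaptor that marks the oxidative stress factor Nrf2 for degradation. Neither holds a match to either motif.
P2ry6, chr7:100965186-100965385: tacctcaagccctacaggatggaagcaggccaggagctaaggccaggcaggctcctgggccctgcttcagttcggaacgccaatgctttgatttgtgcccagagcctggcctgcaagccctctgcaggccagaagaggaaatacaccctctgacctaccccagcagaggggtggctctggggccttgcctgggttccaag
Keap1, chr9:21241454-21241653: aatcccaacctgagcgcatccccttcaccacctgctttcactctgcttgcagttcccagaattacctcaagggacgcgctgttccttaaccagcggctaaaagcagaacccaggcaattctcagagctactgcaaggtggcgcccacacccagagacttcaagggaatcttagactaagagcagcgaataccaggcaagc
The next 4 carry CTCF matches. They lie in an intron of Asb4, a subunit of a ubiquitin ligase, next to Krt28, a keratin gene, next to Sfta2 and next to Cracr2a, a calcium sensor, and the last pair also hold a Crx and Otx2 match.
Asb4, chr6:5401487-5401686: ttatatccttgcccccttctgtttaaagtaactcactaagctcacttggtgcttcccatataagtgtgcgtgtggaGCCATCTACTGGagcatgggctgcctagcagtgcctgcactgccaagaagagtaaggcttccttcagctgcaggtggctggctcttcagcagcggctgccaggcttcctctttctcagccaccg
Krt28, chr11:99379686-99379885: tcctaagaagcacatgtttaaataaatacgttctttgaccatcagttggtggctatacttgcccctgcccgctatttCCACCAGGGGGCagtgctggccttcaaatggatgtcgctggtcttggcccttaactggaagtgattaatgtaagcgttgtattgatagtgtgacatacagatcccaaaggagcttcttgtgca
Sfta2, chr17:35590929-35591128: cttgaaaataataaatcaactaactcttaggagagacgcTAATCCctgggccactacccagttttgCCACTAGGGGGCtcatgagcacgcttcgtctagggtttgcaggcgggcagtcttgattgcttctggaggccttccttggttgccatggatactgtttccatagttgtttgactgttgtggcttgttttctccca
Cracr2a, chr6:127524500-127524699: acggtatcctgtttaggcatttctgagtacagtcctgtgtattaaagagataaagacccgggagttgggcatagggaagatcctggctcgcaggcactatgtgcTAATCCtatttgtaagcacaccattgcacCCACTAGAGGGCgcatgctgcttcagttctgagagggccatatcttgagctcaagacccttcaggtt
The last holds a Crx and Otx2 match and no CTCF match. Ppef1 encodes a calcium-binding phosphatase and its intronic region was the intronic member with the highest rank in the contralateral lists.
Ppef1, chrX:160689849-160690048: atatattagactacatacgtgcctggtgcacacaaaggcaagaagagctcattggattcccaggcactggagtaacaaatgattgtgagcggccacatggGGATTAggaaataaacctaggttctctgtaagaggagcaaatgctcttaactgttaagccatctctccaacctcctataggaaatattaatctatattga

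The members were weak peaks. Within each list, peaks were ranked by their −log10 q-value and the rank was expressed as a percentile, 100 being the strongest. The median member stood at percentile 31.4, 21.7 and 28.6 of contralateral replicates 1, 2 and 3, and the highest member at 71.1, 67.9 and 68.0. In all 3 lists together, 1354 members (82.5%) were under the 50th percentile and 15 (0.914%) were above it. By contrast, the 29668 regions called in all 6 of these libraries had a median mean percentile of 72.8 (quartiles 57.1 and 86.8), against 27.0 (19.6 and 35.1) for the members. Both sets were chosen on calls in these same lists, so this contrast follows in part from the rule. The 4407 other regions called in 3 of these 6 libraries had a median of 22.6 in the contralateral lists that called them. The fold over local background at the summit, which the peak caller computes within a library, was 5.07, 4.45 and 5.07 for the median member and 6.18, 5.71 and 6.31 for the median of all peaks. In replicates 1, 2 and 3, 70.7%, 66.0% and 70.0% of the members ranked beyond the 36011 peaks of the shortest IOP list.

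**Figure D1:**
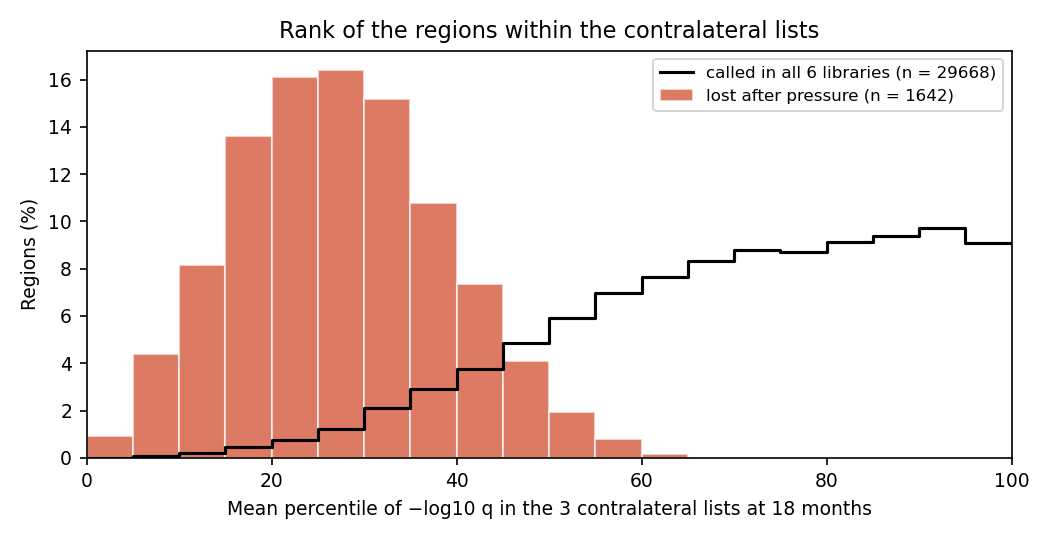
Distribution of the mean percentile of −log10 q over the 3 contralateral lists at 18 months (x axis, 100 is the strongest peak), as a percent of regions (y axis), for the 1642 lost regions (bars) and the 29668 regions called in all 6 IOP and contralateral libraries (line). The lost regions have a median of 27.0 and end at 62.9, whereas the others have a median of 72.8. Both sets were chosen on calls in these lists, so the gap follows in part from the rule.

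List length differed between the groups that chose the members. The contralateral lists held 51166 to 60755 peaks and the IOP lists 36011 to 48723, without overlap. When each of the 18 lists was reduced to its 36011 strongest peaks and the regions were rebuilt, 396 regions were lost and 461 were gained (called in 3 IOP and 0 contralateral libraries), where the full lists gave 1642 lost and 176 gained. Of the 1642 members, 135 (8.22%) were among those 396. Lost regions thus outnumbered gained ones in the full lists and not in lists of equal length. Shortest peaks also split the libraries into kinds: 79 to 89 bp in the untreated libraries, 114 to 122 bp in 5 others (contralateral replicates 1 and 3 and IOP replicate 1 at 18 months, contralateral replicate 2 and IOP replicate 1 at 3 months), and 148 to 157 bp in the remaining 7. At 18 months both of the longer kinds occurred in the IOP and in the contralateral group, and the part of this difference in the membership was not tested.

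Just outside the rule stood 3398 regions called in 3 contralateral and 1 IOP library, whose median mean percentile was 31.6 and median width 367 bp, and 4117 regions called in 2 contralateral and 0 IOP libraries, with percentile quartiles of 13.0 and 28.8 and a median width of 260 bp. The members lay between them, at a median percentile of 27.0 and a median width of 302.5 bp. An IOP peak lay within 1 kb of 201 members (12.2%) and within 10 kb of 896 (54.6%), with a median distance of 8425 bp to the nearest one. For the regions called in 2 contralateral and 0 IOP libraries the values were 13.5%, 55.8% and 8058 bp, near those of the members.

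The 12 libraries that the rule did not use called between 25.3% and 78.1% of the members each. Untreated retinas of 18 months called 50.2%, 46.9% and 51.8% of the members (mean 49.7% ± 2.52, SD, n = 3). Untreated retinas of 3 months called 42.8%, 36.5% and 68.6% (49.3% ± 17.0), contralateral retinas of 3 months 25.3%, 78.1% and 31.7% (45.0% ± 28.8), and IOP retinas of 3 months 44.5%, 33.7% and 33.5% (37.2% ± 6.28). The untreated old retinas therefore formed a tight group, while single libraries with long lists, contralateral replicate 2 and untreated replicate 6, set the spread at 3 months. The same libraries called 59.4% to 62.7%, 55.1% to 73.6%, 51.0% to 79.0% and 57.6% to 63.2% of all consensus regions in that order. Over the 4407 other regions called in 3 of the 6 libraries at 18 months, which match the members in the number of calls, the untreated old retinas called 36.0% ± 3.04, the untreated young ones 39.6% ± 16.1, the contralateral young ones 39.8% ± 28.9 and the IOP young ones 37.9% ± 5.95. Members were thus above these regions in the first 3 groups, by less than 1 SD in the contralateral and untreated retinas of 3 months, and not in the IOP retinas of 3 months. The 2 sets were not matched in strength. In the old contralateral lists that called them, the median mean percentile was 22.6 for these regions and 27.0 for the members. The part of this in the gap was not tested.

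**Figure D2:**
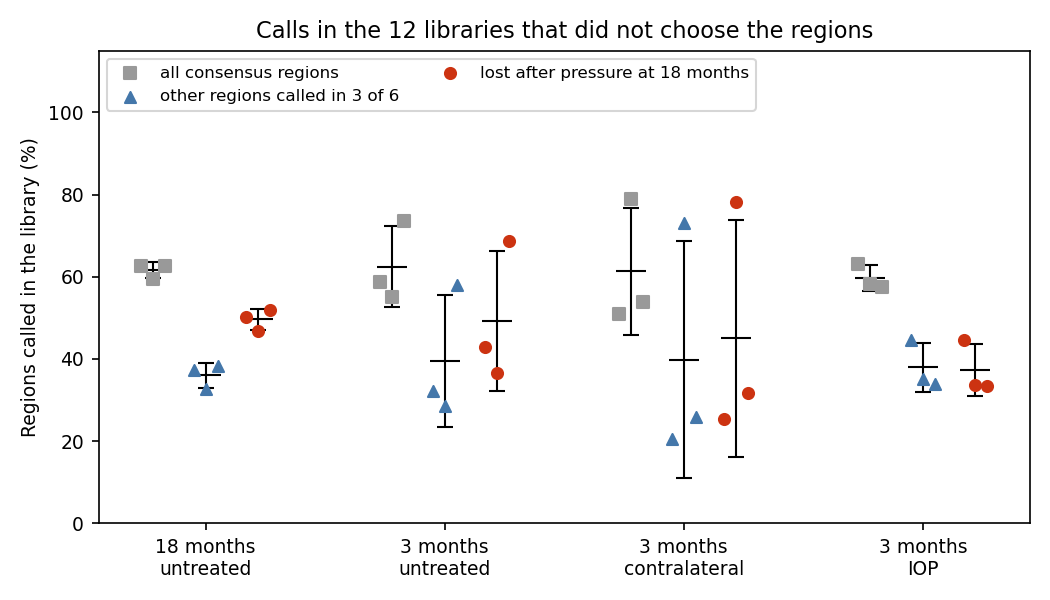
Percent of regions called (y axis) in each of the 12 libraries outside the rule, for the 1642 lost regions (red circles), the 4407 other regions called in 3 of the 6 18-month libraries (blue triangles) and all 73567 consensus regions (grey squares), with the mean and SD (black, n = 3). The lost regions sit between 46.9% and 51.8% in untreated retinas of 18 months and between 25.3% and 78.1% in contralateral retinas of 3 months.

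Region by region, 521 members (31.7%) were called in 3 of 3 untreated retinas of 18 months, 281 in 2, 321 in 1 and 519 (31.6%) in 0. Over all consensus regions 50.5% were called in 3 and 26.5% in 0, and over the other regions called in 3 of 6 these shares were 18.6% and 44.4%. The share called in 3 of 3 was 9.87% of the regions that met the rule when a call needed peaks that cover 50% of the region. The median member was called in 5 of the 12 other libraries (quartiles 3 and 7), compared with 8 for all consensus regions and 4 for the other regions called in 3 of 6. At the extremes, 146 members (8.89%) were called in at least 10 of the 12 and 253 (15.4%) in at most 2, where all consensus regions had 44.2% and 22.2% and the other regions called in 3 of 6 had 4.40% and 24.9%. The members thus ran from regions called in nearly every other retina to regions that were seen in the old contralateral retinas and hardly anywhere else.

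Between untreated animals, 33 members (2.01%) were called in 3 of 3 retinas of 18 months and 0 of 3 of 3 months, against 0.892% of all consensus regions. The opposite pattern was found for 20 members (1.22%), against 0.776%. Among regions called in 3 of these 6 libraries the shares were 14.3% of 231 members against 12.5% of all such regions for the first pattern, and 8.66% against 10.9% for the second, so the counts were near the background once the number of calls was matched.

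At 3 months, the IOP and contralateral libraries allow a comparison on retinas that did not choose the members, and it asks whether the same regions were lost after pressure in young animals. Lost at 3 months as well (3 of 3 contralateral, 0 of 3 IOP) were 19 members (1.16%), against 0.241% of all consensus regions. Of the 326 members called in 3 of the 6 libraries, these were 5.83%, against 3.22%. Gained at 3 months were 3 members (0.183% against 0.217%, and 0.920% against 2.91%). More contralateral than IOP libraries called 628 members (38.2%), and more IOP libraries called 341 (20.8%), while the shares over all regions were 19.8% and 15.3%. This lean rested on contralateral replicate 2. Without it, a higher share of contralateral libraries called 26.2% of the members and a higher share of IOP libraries 44.2%. Over all regions these shares were 11.4% and 26.5%, so all regions turned the same way. For the members, the difference between group means, IOP minus contralateral, went from −7.84 to 8.71 percentage points. Within libraries of one shortest-peak length it was 44.5% in IOP replicate 1 against 78.1% in contralateral replicate 2, and 33.7% and 33.5% in IOP replicates 2 and 3 against 25.3% and 31.7% in contralateral replicates 1 and 3. Fisher's exact test (two-sided, Benjamini-Hochberg over 34858 regions, 1389 of them members) called 0 regions (0%), with 0 at an unadjusted p under 0.05; 3 libraries against 3 cannot give a p below 0.10.

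The 19 regions lost at both ages had a median mean percentile of 25.9. No promoter was among them, 11 were intronic, 6 intergenic and 2 exonic, and 0 held a CTCF match. Of all members 5.30% were promoters and 10.8% held a CTCF match, so a count of 0 among 19 regions says little. Untreated libraries called 5 of them in all 6 cases and 2 in none. Among the 5 was a region whose nearest gene is Dut, which clears dUTP (chr2:125259320-125259548). It stood at percentile 32.8, 25.5 and 37.2 in the contralateral lists of 18 months and at 12.5, 27.2 and 27.0 in those of 3 months. In the untreated lists it stood at 46.6, 40.8 and 39.6 at 18 months and at 26.4, 24.8 and 28.2 at 3 months. It was thus absent from the 6 IOP lists and from no other. The same held for an intron of Galnt7, an enzyme of O-glycosylation (chr8:57590146-57590671), for a region nearest to Gna12, a G protein subunit (chr5:140854672-140854960), and for an intron of the non-coding Gm48657 (chr10:94641330-94641699). At the other end, the introns of Dlgap1, a scaffold of excitatory synapses (chr17:70527195-70527468), and R3hdm2 (chr10:127490791-127491314) were called in the 6 contralateral libraries and in no other. Another 12 lay in or next to Gm30691, Fgl1, Ttc17, Ano4, Gm29865, Gm38038, 2010300C02Rik, Gm9790, Arnt2, 4933406D12Rik, Gm48013 and Oser1.

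**Figure D3:**
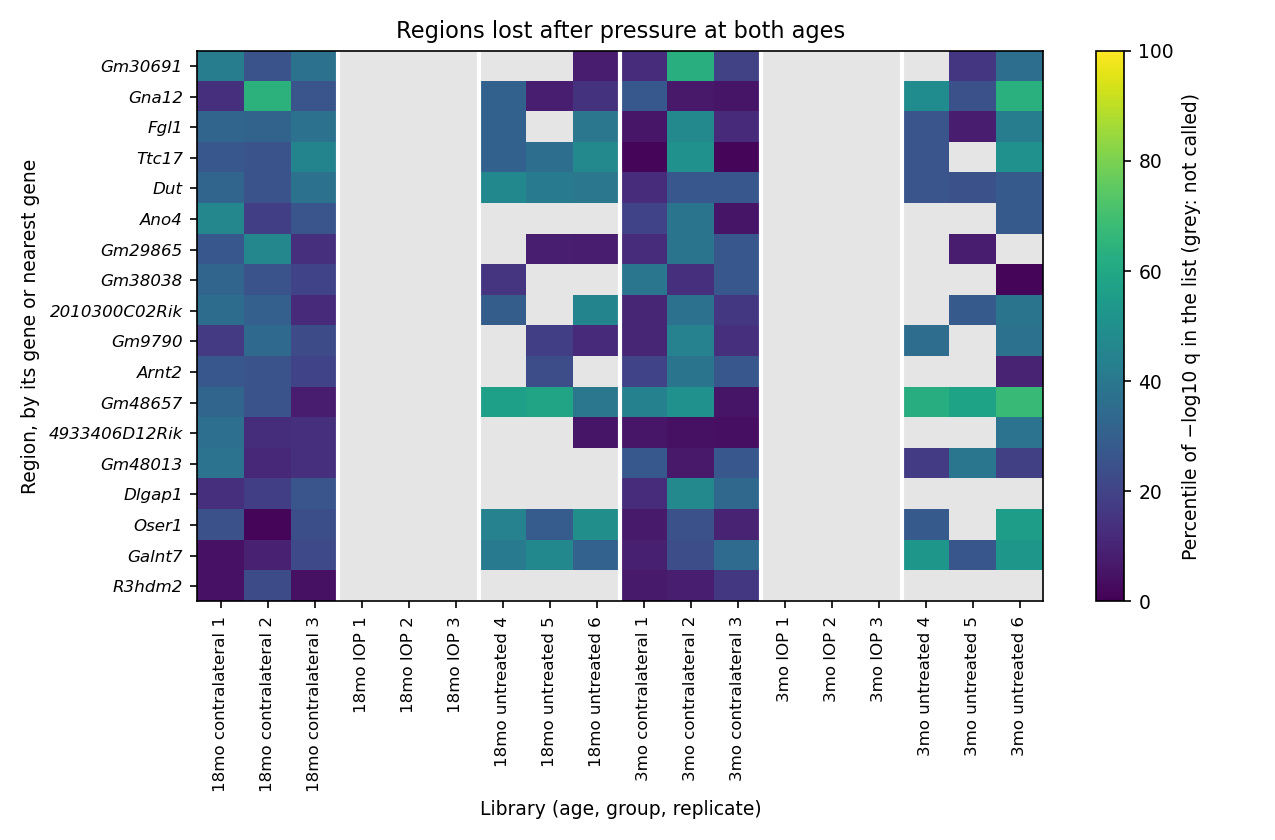
Percentile of −log10 q within each list (colour, grey where not called) of 18 of the 19 regions lost at both ages (rows, ordered by their mean in the old contralateral lists) in the 18 libraries (columns). By the rule that picked them, all are coloured in the 6 contralateral columns and grey in the 6 IOP columns; Gna12, Dut, Gm48657 and Galnt7 are also coloured in all 6 untreated columns.

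Most members lay away from promoters. Introns held 820 (49.9%), intergenic sequence 648 (39.5%), exons 87 (5.30%) and promoters 87 (5.30%), where promoters were windows that began 1 kb before a start of transcription and ended 100 bp after it. Over all consensus regions the shares were 47.5%, 26.6%, 6.50% and 19.4%, and over the regions called in all 6 libraries promoters made up 37.7%. The other regions called in 3 of 6 had 7.65% promoters and 30.3% intergenic regions, so a low share of promoters was common to sparsely called regions, and the members were further on the intergenic side. The median distance to a start site was 12876 bp for members, 8794 bp for all regions and 12633.5 bp for the other regions called in 3 of 6, so the members' distance was near that of regions with as many calls. More than 50 kb away were 230 members, 9.97% of all regions and 12.5% of the other regions called in 3 of 6. The median width was 302.5 bp, against 405 bp and 327 bp, and the mean share of G and C 50.4%, against 54.1% and 52.0%, in the same order. Repeats covered 11.7% of the members' windows and 11.3% of those of all regions.

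**Figure D4:**
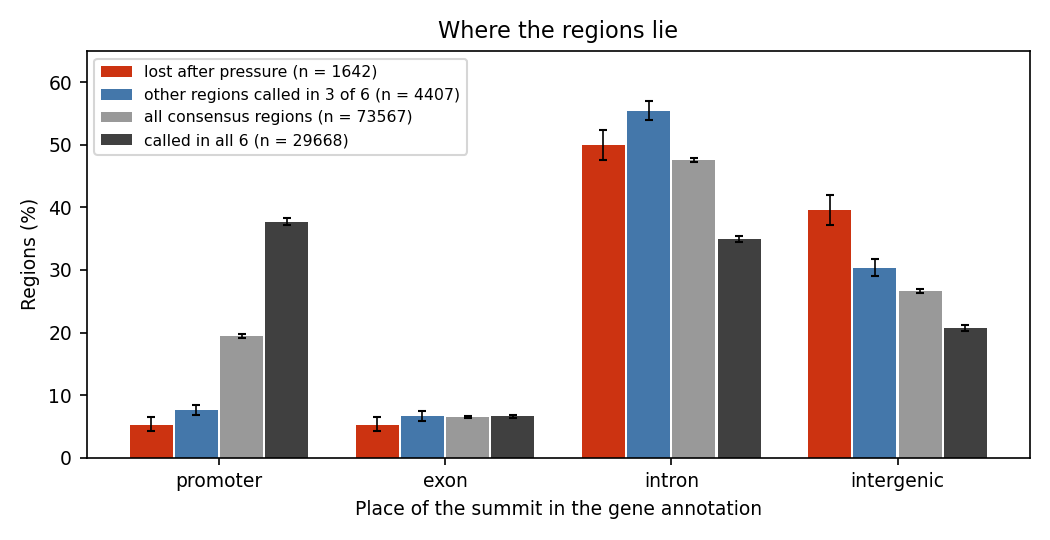
Percent of regions (y axis) whose summit lies in a promoter, exon, intron or intergenic sequence (x axis) for 4 sets of regions, with exact 95% binomial intervals that cover counting error only. Lost regions have 5.30% promoters and 39.5% intergenic regions, against 19.4% and 26.6% of all consensus regions.

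The members were spread over the genome, with 1.60% to 3.06% of the regions of each autosome and chromosome X lost. The lowest share was on chromosome X (22 members) and the highest on chromosome 13 (101 members). Neighbouring members stood a median of 773901 bp apart, and only 16 neighbouring pairs lay within 10 kb of each other. In genes, 877 held 1 member, 49 held 2, 5 held 3 and 1 held 4. Adgrv1, the adhesion receptor of the photoreceptor ciliary membrane that is mutated in Usher syndrome, had 4 lost introns among its 21 regions over 538 kb. Asb4 had all 3 of its regions lost, Fstl4, a secreted follistatin-like protein, 3 of 7, Dlgap1 3 of 18, and Wwox, a tumour suppressor, 3 of 29 over 913 kb. Genes with 2 members included Akap6, an anchor of protein kinase A, Adam1a, 2010111I01Rik and 6330411D24Rik.

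The strongest of the Adgrv1 regions (chr13:81593703-81594112) stood at percentile 51.8, 52.7 and 52.8 in the contralateral lists and 39.7, 52.8 and 62.0 in the untreated lists of 18 months. At 3 months it stood at 44.1, 48.3 and 52.3 in the untreated lists, at 14.7 and 25.7 in contralateral replicates 1 and 3, and was not called in contralateral replicate 2 or in any IOP library. Of the 3 Asb4 regions, the one with the CTCF match (chr6:5401446-5401683) reached 53.0, 49.8 and 54.2 in the contralateral lists and 6.97, 40.8 and 14.8 in the untreated lists of 18 months. The Asb4 promoter region (chr6:5382614-5383101) was called in 10 of the 12 other libraries, the 3 IOP libraries of 3 months included.

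Among the 87 promoters, 58 belonged to protein-coding genes and 29 to other kinds, mostly long non-coding RNAs (15). The P2ry6 promoter (chr7:100964936-100965467, 895 bp upstream of a start site) ranked first. Its percentiles were 52.0, 57.9 and 55.2 in the contralateral and 45.7, 48.7 and 41.4 in the untreated lists of 18 months. At 3 months they were 37.0, 60.1 and 44.4 in contralateral, 52.4, 24.1 and 45.5 in IOP and 45.4, 43.6 and 43.3 in untreated lists, so that only the 3 IOP lists of 18 months lacked it. Next among the promoters of protein-coding genes came Gm10037, Tes, a focal adhesion protein, A630001G21Rik, Fstl4, Rorb, a nuclear receptor needed for rod and amacrine cell development, Mc3r, a melanocortin receptor, Cdk14, a kinase of Wnt signalling, Asb4 and Lkaaear1. The Rorb promoter (chr19:19000981-19001260) stood at 39.7, 20.7 and 47.4 in the contralateral and at 39.6, 10.8 and 30.6 in the untreated lists of 18 months, and at 30.0, 30.7 and 45.0 in the untreated lists of 3 months. Pressured libraries of both ages did not call it, and neither did contralateral replicates 1 and 3 of 3 months. Lkaaear1 (chr2:181698392-181698631) and Gm10037 (chr13:67833229-67833425) were likewise called in all 6 untreated and in 0 of 6 IOP libraries.

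In all, 15 members (0.914%) were called in each of the 12 other libraries, against 35.6% of all consensus regions and 0.454% of the other regions called in 3 of 6. They lay in introns (7), intergenic sequence (7) and 1 promoter, P2ry6, and the 5 with the highest mean percentile in those libraries were at Keap1, Cracr2a, Ninl, Rasa2 and Gm8748. The Keap1 region (chr9:21241460-21241693, 2193 bp from the start site) stood at 57.3, 53.5 and 65.6 in the contralateral and at 60.8, 64.8 and 65.8 in the untreated lists of 18 months. It stood at 62.4, 35.7 and 20.1 in the IOP lists of 3 months, so the pressured young retinas did call it. Cracr2a (chr6:127524407-127524763) ran from 18.6 to 48.7 in the old contralateral lists and from 30.9 to 59.7 in the 12 others, and Ninl, a centrosomal protein (intron, chr2:151000833-151001154), from 51.6 to 62.5 and from 12.5 to 78.4. Rasa2 (intron, chr9:96627705-96627992), a negative regulator of Ras, ran from 16.6 to 55.0 and from 3.11 to 70.0. By contrast, 41 members were called in none of the 12, such as the region next to Gm41071 (chr13:113429699-113430016) and an intron of Camta1 (chr4:151232035-151232321), at percentile 42.5, 46.2 and 32.0 and at 36.3, 40.6 and 28.1 of the 3 contralateral lists of 18 months; both were chosen after their values were seen.

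The strongest members outside promoters were led by an intergenic region next to 1700022I11Rik (chr4:42961681-42961906), at 66.0, 61.3 and 61.4 in the old contralateral and 59.4, 57.2 and 61.1 in the old untreated lists. An exon of the processed pseudogene Gm7634 (chr1:16053518-16053963) stood at 58.1, 64.3 and 65.9; reads of a pseudogene can be shared with its parent gene, and how such reads were placed is not given in the sources used here. Ppef1 (intron, chrX:160689778-160690081) stood at 60.3, 62.5 and 60.8 and at 66.5, 58.9 and 70.3. Cfdp1, a chromatin-associated protein (exon, chr8:111840238-111840592), stood at 46.4, 62.6 and 67.3 and Acer3, a ceramidase (intron, chr7:98274423-98274819), at 52.0, 64.0 and 55.3. These 5 regions were called in 3 of 3 untreated retinas of 18 months, and Cfdp1 in 0 of 6 IOP and contralateral retinas of 3 months, although the 3 untreated retinas of 3 months called it at 17.5, 22.8 and 42.2.

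Of the 135 members that stayed lost with lists of equal length, 61 were intergenic (45.2%), 60 intronic (44.4%), 8 exonic and 6 promoter regions, and of the other 1507 members 39.0% were intergenic and 50.4% intronic. The untreated old retinas called 77.8%, 77.8% and 80.0% of the 135 and 47.8%, 44.1% and 49.3% of the others, and 88 of the 135 (65.2%) were called in all 3. At 3 months, contralateral libraries called 40.0%, 89.6% and 46.7% of the 135 and IOP libraries 65.2%, 43.0% and 41.5%, with ranges that overlap. The 135 were set apart by their rank in the contralateral lists, so these values are a description with no test.

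CTCF matches were the sequence feature in which the members stood furthest above all regions. A match in the 200 bp around the summit was found in 178 members (10.8%, exact Clopper-Pearson 95% interval 9.38 to 12.4, which covers counting error only), in 6.31% of all consensus regions, in 4.57% of the other regions called in 3 of 6 and in 7.55% of the regions called in all 6. Only 1 of 175 gained regions (0.571%) held one. Promoters rarely hold a match and members are rarely promoters; in introns and intergenic sequence alone the shares were 11.5% of members, 7.47% of all regions, 11.6% of regions called in all 6 and 4.77% of the other regions called in 3 of 6. Outside promoters, the share of the members was thus close to that of the steadily called regions and above that of the regions with the same number of calls. Over all annotation classes, regions called in 3 contralateral libraries held matches in 10.8%, 10.0%, 8.64% and 7.54% as IOP libraries went from 0 to 3. Regions called in 2 contralateral libraries held them in 6.95%, 5.07%, 4.23% and 3.79%. The first series mixes classes, as promoters made up 5.30% of its regions with 0 IOP libraries and 37.7% with 3. In introns and intergenic sequence its 2 ends were 11.5% and 11.6%, so no fall was seen between them. With lists of equal length, 67 of 396 lost regions (16.9%) and 4 of 461 gained regions (0.868%) held a match, against 7.61% of all regions. These shares pool all annotation classes, and introns and intergenic sequence alone were not examined in this setting. When contralateral replicate 2 of 18 months was left out, 7.71% of the lost regions held a match.

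**Figure D5:**
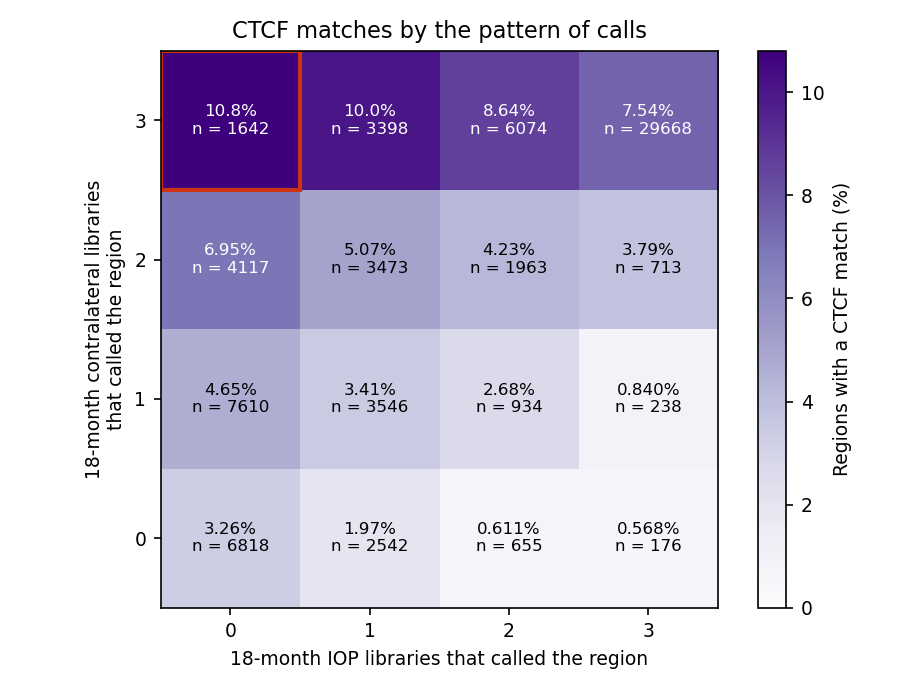
Percent of consensus regions with a CTCF match (colour and upper number) and number of regions (n) by how many of the 3 contralateral (y axis) and 3 IOP libraries (x axis) at 18 months called them. The members (red frame) have 10.8%, and the opposite corner, called in 0 contralateral and 3 IOP libraries, 0.568% of 176 regions. All annotation classes are pooled. In introns and intergenic sequence alone the members have 11.5% and the regions called in all 6 libraries 11.6%.

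Outside the rule, members with a CTCF match were called less often than the others in untreated retinas of 18 months. They were called more often in IOP retinas of 3 months, and the direction was mixed in contralateral and untreated retinas of 3 months. Untreated retinas of 18 months called 48.3%, 46.6% and 47.8% of the 178, against 50.5%, 46.9% and 52.3% of the other 1464 members. Those of 3 months called 41.6%, 39.9% and 70.2% of the 178, against 42.9%, 36.1% and 68.4% of the others. Contralateral retinas of 3 months called 21.3%, 86.5% and 42.1% of the 178 and 25.8%, 77.1% and 30.5% of the others. IOP retinas of 3 months called 52.2%, 38.8% and 51.1% against 43.5%, 33.1% and 31.4%, higher in all 3 libraries. The IOP and contralateral values for the 178 overlapped. Over all regions with a match, the IOP libraries of 18 months called 61.3%, 70.6% and 57.3%, each fewer than the 81.0% to 83.6% of the contralateral libraries, while they called 60.2%, 62.6% and 46.6% of all regions, against 65.8% to 74.2%. Members are part of those totals, and these 6 libraries chose them. The share with a match exceeded that of all regions by 9.22, 17.8 and 10.0 percentage points in contralateral replicates 1, 2 and 3. In IOP replicates 1, 2 and 3 the excess was 1.11, 7.97 and 10.8 points, so the 2 groups overlapped. At 3 months the IOP libraries called 73.9%, 70.0% and 73.0% of the regions with a match and the contralateral libraries 63.1%, 88.9% and 69.7%.

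Krt28 (chr11:99379655-99379986) was one of the members with a CTCF match called in all 12 other libraries, with a mean percentile of 38.0 over them, and it stood at 64.0, 53.0 and 37.2 in the old contralateral lists. Sfta2 (chr17:35590883-35591214) was called in 10 of the 12 and stood at 42.5, 60.5 and 45.3. The regions shown for Krt28, Sfta2 and Asb4 were chosen after their values were seen, as strong members with a match.

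The other motifs lay on both sides of the shares over all regions. The Crx and Otx2 motif TAATCC was found in 266 members (16.2%), against 15.4% of all regions and 49 of 175 gained regions. In introns and intergenic sequence alone it was found in 16.9% of members, 18.4% of all regions, 22.1% of regions called in all 6 and 14.7% of the other regions called in 3 of 6, so the direction against all regions turned with the low share of promoters. TAATTA of other homeodomain factors was found in 3.96% against 4.14%. The STAT motif TTCNNNGAA was found in 5.18% against 4.40%, and in 23.4% of gained regions. The AP-1 motif TGANTCA, bound by Fos and Jun, was found in 65 members (3.96%), against 6.60% of all, 8.48% of the other regions called in 3 of 6 and 29.7% of gained regions. Furthest below all regions were the motifs common at promoters, with GGGCGG of Sp and Klf factors in 7.73% against 18.7% and CCGGAA of ETS factors in 2.01% against 6.71%; in introns and intergenic sequence alone these were 5.93% against 8.31% and 1.91% against 3.17%. The E-box CANNTG was found in 70.0% against 66.5%, its forms CAGCTG in 16.4% against 17.3% and CAGATG in 328 members, against 18.6% of all regions; in introns and intergenic sequence CANNTG was in 70.7% against 71.3% and CAGATG in 20.5% against 21.5%. The half-sites TGCTGA of Nrl, AGGTCA of nuclear receptors and TTGGCA of NFI factors were found in 15.5%, 13.5% and 13.1%, against 18.1%, 14.7% and 11.2%. GGAATG of TEAD factors was found in 10.4% against 9.44%, ACAATG of Sox factors in 8.59% against 7.67%, and TAAAAATA of Mef2 in 1.28% against 1.69%. A match to such short letters is not evidence of binding, and several motifs overlap: CAGCTG and CAGATG are forms of CANNTG.

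Cell-type genes gave few members, as a gene list holds few regions. Over all genes, 994 of 53988 regions in promoters, exons and introns were lost (1.84%). In rods, 3 of 112 regions (2.68%) were lost, at Gnb1, the beta subunit of transducin, Rp1, a microtubule protein of the outer segment, and Cngb1, a subunit of the light-regulated channel. The Gnb1 intron (chr4:155495892-155496125) stood at 45.3, 22.7 and 49.7 in the contralateral and 48.2, 47.8 and 44.3 in the untreated lists of 18 months. Cngb1 (promoter, chr8:95307148-95307401) was weak, at 5.80, 20.4 and 8.62. In cones 1 of 61 was lost (Thrb, a thyroid hormone receptor that sets M opsin), among photoreceptor transcription factors 2 of 63 (Rorb, Prdm1), in bipolar cells 1 of 78 (Prkca), in amacrine cells 1 of 62 (Slc6a9, the glycine transporter) and in endothelial cells and pericytes 1 of 42 (Vwf).

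For retinal ganglion cells, the neurons whose axons form the optic nerve, 2 of 41 regions (4.88%) were lost. One lay in an intron of Gap43, a growth cone protein (chr16:42276538-42276842), at 27.0, 11.5 and 26.3, with a CTCF match, and one in an intron of the RNA-binding protein gene Rbpms (chr8:33797377-33797673), at 40.9, 18.6 and 16.7. Untreated retinas of 18 months called each in 1 of 3 cases. Of the 12 other libraries, 6 called the Gap43 region and 3 the Rbpms region, at mean percentiles of 19.1 and 5.65. No lost region was found among the 42 regions of Müller glia genes, 41 of reactive glia and injury genes, 47 of cell-cycle arrest and senescence genes, 19 of astrocyte, 18 of horizontal cell, 16 of lens and ciliary epithelium, 15 of pigment epithelium and 9 of microglia genes. These lists are small beside a share of 1.84% over all genes, so a count of 0 says little, and so does the count of 2 among 41 ganglion cell regions. Among AP-1 and STAT factor genes, 1 of 44 was lost (Stat5b intron, chr11:100814473-100814859).

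Genes of voltage-gated channels held the largest share of lost regions among the larger lists, with 12 of 300 (4.00%) in 11 genes. The share of 1.84% over all genes includes promoters, which were rarely lost. In introns alone, where most of these 12 lay, 820 of 34962 regions were lost over all genes. How many of the 300 regions were intronic is not given here, so the 4.00% has no like-for-like background. The potassium channel genes Kcnma1 (2 regions), Kcnb2, Kcnq5, Kcnip4, Kcnq3, Kcnh5 and Kcnc1 and the calcium channel genes Cacna1e, Cacna1c, Cacnb2 and Cacna1a were involved, all in introns but for the Cacna1e promoter (chr1:154726537-154727043). The stronger Kcnma1 region (chr14:23810883-23811079), in the gene of the large-conductance calcium-activated channel, stood at 55.7, 37.5 and 32.0 and was called in 4 of the 12 other libraries. Kcnq5 (chr1:21461015-21461459) was called in 9 of them, in all 6 IOP and contralateral and 3 untreated retinas of 3 months, and in 0 of 3 untreated retinas of 18 months. Synaptic adhesion genes had 8 of 450 (1.78%), with 2 Ptprd regions, Sdk1, Sdk2, Nrxn2, Dscam, Lrrtm4 and Tenm4. Receptors for glutamate, GABA and glycine had 4 of 185 (2.16%, Grin3a, Grik4, Gabrr1, Grid1), and axon guidance genes 5 of 228 (2.19%), at Nrp1, Nrp2, Slit3, Robo3 and Sema6a. The Nrp1 intron (chr8:128363250-128363609), in the receptor gene for class 3 semaphorins and VEGF, was the strongest of the guidance regions, at 57.2, 50.2 and 50.5. Glaucoma risk genes had 2 of 89 (2.25%), at Arhgef12 and Gas7. These gene lists were drawn up with earlier results of these data known, and none of the shares was tested.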

How the data were processed

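ATAC-seq peak lists of 18 mouse retina libraries, 3 in each of 6 groups, were used. Per the labels and the study's methods, the authors called peaks with MACS2 on the mm10 build, and each library has a list of its own. The submitters' processing notes also name STAR 2.7.8a, HOMER, edgeR and bedtools 2.29.2, without their role; trimming, duplicate removal, the transposase shift and the handling of reads with several matches are not given in the sources used here. The deposited lists give each peak a score, a fold enrichment at the summit, and −log10 p-values and −log10 q-values; the largest deposited q-value was 0.0499. The deposited score repeats the −log10 q-value, multiplied by 10 and cut to a whole number, and was not used further. No counts per region or depths were used, so a missing call may be an open region under the caller's threshold.

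Peaks were merged across lists (overlap of 1 bp or more) into 99792 regions, of which 73567 had a peak in at least 2 lists. Regions were annotated at the median summit with GENCODE M21 basic, and sequences were read from GRCm38.p6, the assembly behind mm10. Motifs were searched on both strands in 200 bp around the summit; 118 regions, 0 of them members, had no full window. Calls at 3 months were compared with Fisher's exact test (two-sided, Benjamini-Hochberg, scipy 1.17.1), which was tested on simulated calls. Labels number the replicates but do not say that they came from separate animals, so tests measure the spread between these samples. Names inside the untreated lists give the same age as the labels but number the lists in reverse, so which untreated library is replicate 4 or 6 is uncertain; each age group holds the same 3 lists either way.

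Members and gene lists were chosen with earlier results of these data known. Named regions were the 2 members of each annotation class with the highest mean percentile, the regions lost at both ages, the 10 strongest promoters of protein-coding genes, the 10 genes with most members, the 5 strongest members called in all 12 other libraries, and list genes; regions named outside this rule are said to be chosen after their values were seen. Alternatives were a stricter q of 0.01, equal numbers of peaks, calls that need 50% coverage, regions in 3 or more lists, other promoter and motif windows, a replicate block, 6 control libraries and leaving out each library. A few regions and genes that met these rules are not reported here.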

Additional observations from a re-analysis of the deposited data

How the results depend on the processing

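Of 108 alternatives, 35 moved a result and 1 reversed it; the causes were not tested. The other 72 say little of stability, since they include the test at 3 months, which could not pass in most settings, and regions in 3 or more lists, which all members are by the rule. With equal numbers of peaks, 396 regions were lost, 2 of them at both ages, with a median width of 314 bp and a CTCF match in 16.9%. When a call needed 50% coverage, 7.87% of the lost regions were promoters, 9.87% were called in all 3 untreated retinas of 18 months, 8 were lost at both ages and the median width was 329 bp. Promoters within 2.5 kb on either side of a start site made up 15.7%, and Crx and Otx2 matches within 100 bp 11.9%. Leaving out 1 library at a time, which by construction leaves fewer lists to meet the rule, gave 1851 to 3841 lost regions (at 18 months 2969, 3504 and 1851 without IOP replicates 1, 2 and 3, and 2492, 3841 and 2710 without contralateral replicates 1, 2 and 3), 4.70% to 7.01% promoters, 19.6% (without contralateral replicate 2 of 18 months) to 38.4% called in all 3 untreated retinas of 18 months, 20 to 70 regions lost at both ages (70 without contralateral replicate 1 of 3 months, 53 without its replicate 3, 38 without IOP replicate 1 of 3 months, 37 without IOP replicate 2 of 18 months), a median width of 271 to 341 bp, Crx and Otx2 matches in 12.7% to 19.4% and CTCF matches in 7.71% to 11.9%. The lowest CTCF share, 7.71%, came without contralateral replicate 2 of 18 months, and the share was 9.30% without IOP replicate 1 of 18 months. The difference at 3 months, IOP minus contralateral, ran from −17.7 to 8.71 percentage points and reversed, to 8.71, without contralateral replicate 2. The test at 3 months called 0 regions in every setting, the replicate block included (0 called, smallest p 0.250). With the untreated libraries as further controls, Fisher's exact test gave 567 of 42912 regions an unadjusted p under 0.05, 45 of 1545 members among them, and called 0. Same-numbered libraries deviated together with correlations of 0.097, 0.075 and −0.033 at 18 months and −0.090, −0.081 and 0.056 at 3 months. Differently numbered libraries had −0.152 to 0.083 and −0.083 to 0.144. The values do not settle whether libraries with the same number came from one animal. Depth is unknown, which limits what a missing call means.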
